A study of Mus musculus with 4 samples.

Results

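The genes described here encode ion channels and transporters of the airway surface: *Scnn1a*, *Scnn1b* and *Scnn1g*, the subunits of the epithelial sodium channel (ENaC); the anion channels and exchangers *Cftr*, *Ano1*, *Slc26a4* and *Slc26a9*; the chloride loader *Slc12a2*; the proton pump *Atp12a*; and *Gabrp*, a subunit of the GABA type A receptor. They were taken by symbol, and all 10 were found among the 25124 genes of the table. The values are RNA sequencing read counts per gene, each divided by 1 size factor per library and called normalised reads below. The RNA came from airway epithelial cells sorted from the lungs of wild-type (WT) C57BL/6 mice. All of the mice had been sensitised to house dust mite (HDM), whose extract provokes allergic inflammation of the airways. One group was given an inhibitor of SCD1, the stearoyl-CoA desaturase that makes monounsaturated fatty acids, and the other was given dimethyl sulfoxide (DMSO), its vehicle. Each group held 2 samples. The labels name neither the inhibitor compound, its dose, the markers used for sorting, the age of the mice nor the time of sampling. Nor do they say that the samples came from separate animals, so the spread between these samples may be technical. The limma SE, intervals and p values below rest on that spread and, more heavily, on spread borrowed from other genes. All 4 libraries are from sensitised mice, and unsensitised mice were not analysed here.

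The liquid on the airway surface is set by the balance between sodium uptake and anion secretion. ENaC takes up sodium across the apical membrane, with the alpha subunit needed for any channel and the beta and gamma subunits needed for full activity. Chloride enters the cell at its basolateral side through the cotransporter NKCC1 (*Slc12a2*) and leaves at the apical side through the cAMP-regulated channel CFTR and the calcium-activated channel TMEM16A (*Ano1*), and bicarbonate leaves through CFTR and the exchanger pendrin (*Slc26a4*). Pendrin and TMEM16A are known to be induced by the type 2 cytokine IL-13 in allergic airways, and GABA type A receptor signalling has been tied to mucus production in mouse models of allergic asthma.

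The sequences just upstream of *Gabrp*, *Scnn1g* and *Scnn1b* are shown because these genes had the lowest values with the inhibitor relative to DMSO and had similar profiles over the libraries. Each is the 250 bases before the RefSeq transcription start (build GRCm38.p6), written 5′ to 3′ along the gene's own strand, with CpG dinucleotides in capitals. They lie at chr11:33578958-33579207 (minus strand, *Gabrp*), chr7:121734229-121734478 (plus strand, *Scnn1g*) and chr7:121864788-121865037 (plus strand, *Scnn1b*).
Gabrp: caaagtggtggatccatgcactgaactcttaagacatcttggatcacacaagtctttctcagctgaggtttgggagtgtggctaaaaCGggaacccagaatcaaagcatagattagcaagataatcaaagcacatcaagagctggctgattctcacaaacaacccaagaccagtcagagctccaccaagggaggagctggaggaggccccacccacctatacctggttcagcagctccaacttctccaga
Scnn1g: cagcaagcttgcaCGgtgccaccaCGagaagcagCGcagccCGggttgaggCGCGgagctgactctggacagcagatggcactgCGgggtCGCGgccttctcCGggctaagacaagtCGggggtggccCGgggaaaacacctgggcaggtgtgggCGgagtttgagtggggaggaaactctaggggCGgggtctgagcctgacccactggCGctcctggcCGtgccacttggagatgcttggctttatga
Scnn1b: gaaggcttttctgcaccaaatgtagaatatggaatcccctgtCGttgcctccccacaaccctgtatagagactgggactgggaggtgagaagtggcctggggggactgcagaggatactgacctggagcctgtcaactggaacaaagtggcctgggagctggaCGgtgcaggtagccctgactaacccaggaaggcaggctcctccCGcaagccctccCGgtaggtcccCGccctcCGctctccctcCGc

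The *Gabrp* stretch was 49.2% G or C and held 1 CpG, the *Scnn1g* stretch was 65.2% G or C with 16, and the *Scnn1b* stretch 60.8% with 7, beside medians of 52.4% and 6 over the 32851 upstream stretches of that length. The 3 stretches thus differed in base composition. RefSeq entries were matched for 7 of the 10 genes and not for *Scnn1a*, *Slc12a2* and *Atp12a*. The stretch of *Ano1* (chr7:144738574-144738823, minus strand) lies inside the gene body given below for *Ano1*, so it precedes an internal start. Both strands of the 7 stretches were searched for 6 motifs. These were TTCNNNNGAA (the STAT6 spacing, present in 5.85% of all the stretches), TTCNNNGAA (other STAT factors, 7.02%), TGTTTAC (forkhead factors, 3.17%), TCACNCCAC (sterol regulatory element, 1.05%), TGACGTCA (cAMP response element, 1.55%) and TGANTCA (AP-1, 6.75%). None of these letters occurred in any of the 7, which says nothing of factors that bind elsewhere or to other letters.

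The libraries held 24591122 to 27013663 reads assigned to genes. Markers common to epithelial cells had summed values of 155946 to 169005 normalised reads, and all 8 genes of that list passed the floor described below. The labels call the cells airway epithelium, yet markers of alveolar type 2 cells were abundant in every library (282643 to 490269). The summed values of leukocyte markers were 2587 to 5210, those of fibroblasts and smooth muscle 1557 to 3874 and those of endothelial cells 4273 to 6242 in 3 libraries and 12575 in DMSO replicate 2, which stands apart in these markers.

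Of the 10 genes, 9 passed the floor for testing, a mean of 25.8 normalised reads over the 4 libraries, which equals 1 CPM at the mean library total. The alpha subunit *Scnn1a* was by far the most abundant per length, with a mean level of 6029.6 normalised reads per kilobase of exon over the 4 libraries. *Gabrp* came next, at 1008 reads per kilobase, and its lowest library (542) still lay above the highest library of *Slc12a2* (519). *Slc12a2*, *Scnn1b*, *Ano1*, *Slc26a4*, *Slc26a9* and *Scnn1g* followed, with mean levels of 488, 458, 235, 199, 181 and 125 reads per kilobase, and the ranges over libraries of each neighbouring pair in this order overlapped. *Cftr* had the lowest level of the detected genes, at 46.9 reads per kilobase, and its highest library (52.8) lay below the lowest of *Scnn1g* (61.7). Between the most and the least abundant detected gene the level per length differed 129-fold. The order of the mean levels was unchanged when the longest transcript was used as the length, but the ranges over libraries were not. With that length the ranges of *Gabrp* and *Slc12a2* overlapped, as did those of *Scnn1g* and *Cftr*. Those of *Slc12a2* and *Scnn1b* were then separate.

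**Figure D1:**
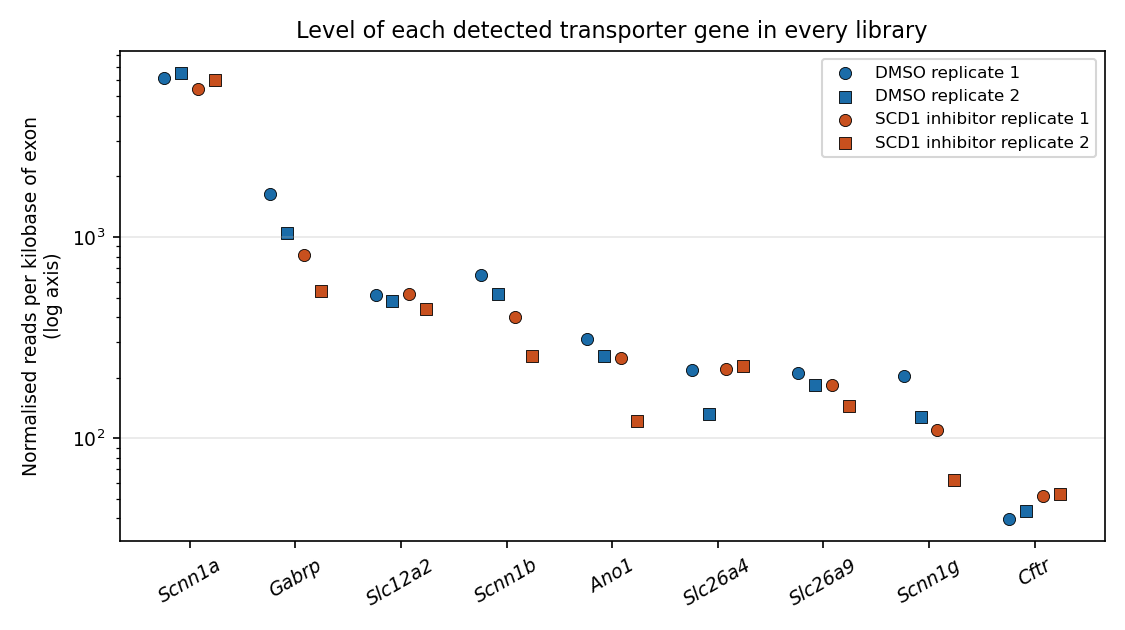
Level of the 9 detected genes in each of the 4 libraries, in normalised reads per kilobase of exon on a log axis, ordered by the mean; circles are replicate 1 and squares replicate 2 of DMSO (blue) and the SCD1 inhibitor (orange). *Scnn1a* stands at a mean of 6029.6 and *Cftr* at 46.9, and *Gabrp*, *Scnn1b*, *Scnn1g* and *Ano1* are highest in DMSO replicate 1 and lowest in inhibitor replicate 2.

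The comparison asked which of these transcripts had other levels in sensitised mice given the inhibitor than in those given its vehicle. *Gabrp* was the 1 gene of the 9 that fell in the limma test over all genes, and 7 of the 9 had a negative log2 fold change (inhibitor minus DMSO). Over all 13810 genes tested, 1.79% passed (p under 0.05 after Benjamini-Hochberg adjustment), and 0.427% passed and were lower. The median log2 fold change of the 9 was -0.27, beside 0.0056 over all genes, of which 49.3% were negative. In 8 of the 9 the ranges of both groups were separate, 6 being lower and 2 higher with the inhibitor, where 44.9% of all genes did not overlap and 22.2% did not and were lower. An unadjusted p under 0.05 was reached by 4 of the 9 and by 14.1% of all genes. With 2 samples against 2, an exact permutation test of a single value cannot give a two-sided p below 0.333, so single genes were tested only in the fit across all genes.

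*Gabrp* encodes the pi subunit of the GABA type A receptor, a chloride channel opened by the transmitter GABA (chromosome 11, 33550781 to 33578959, minus strand, GRCm38). It had 5494 and 3531 normalised reads in the DMSO libraries and 2763 and 1831 in the inhibitor libraries. Both inhibitor libraries lay below both DMSO libraries. The group means were 4513 ± 1388 and 2297 ± 660 (SD, n = 2 each). The log2 fold change was -0.96 ± 0.21 (SE; 95% interval -1.41 to -0.51; limma, adjusted p = 0.0384), 1.95-fold lower on the log2(value + 25.8) scale. The replicates also differed, with a log2 difference of replicate 1 minus replicate 2 of 0.63 under DMSO and 0.59 with the inhibitor.

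The call of *Gabrp* depended on single libraries and on the model of the spread. It did not pass without SCD1 inhibitor replicate 1 (-1.26, limma adjusted p = 0.147, where 0.0362% of all genes passed). Nor did it pass when replicate 2 of the inhibitor was left out (-0.67, adjusted p = 0.707, 0.109% of genes). It passed without DMSO replicate 1 (-0.64, adjusted p = 0.0495, 5.76% of genes) and without DMSO replicate 2 (-1.28, adjusted p = 0.000892, 2.57% of genes). In that last fit *Scnn1b* passed as well. On the read counts recovered from the values, edgeR passed none of the 9 (0.0654% of its genes passed; *Gabrp* adjusted p = 0.175), while DESeq2 passed *Gabrp* and *Scnn1b* (5.67% of genes). DESeq2 gave no adjusted p value for *Cftr* and *Scnn1g*. edgeR without its filter on low counts passed *Gabrp*, *Scnn1b* and *Ano1* (3.5% of genes).

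**Figure D2:**
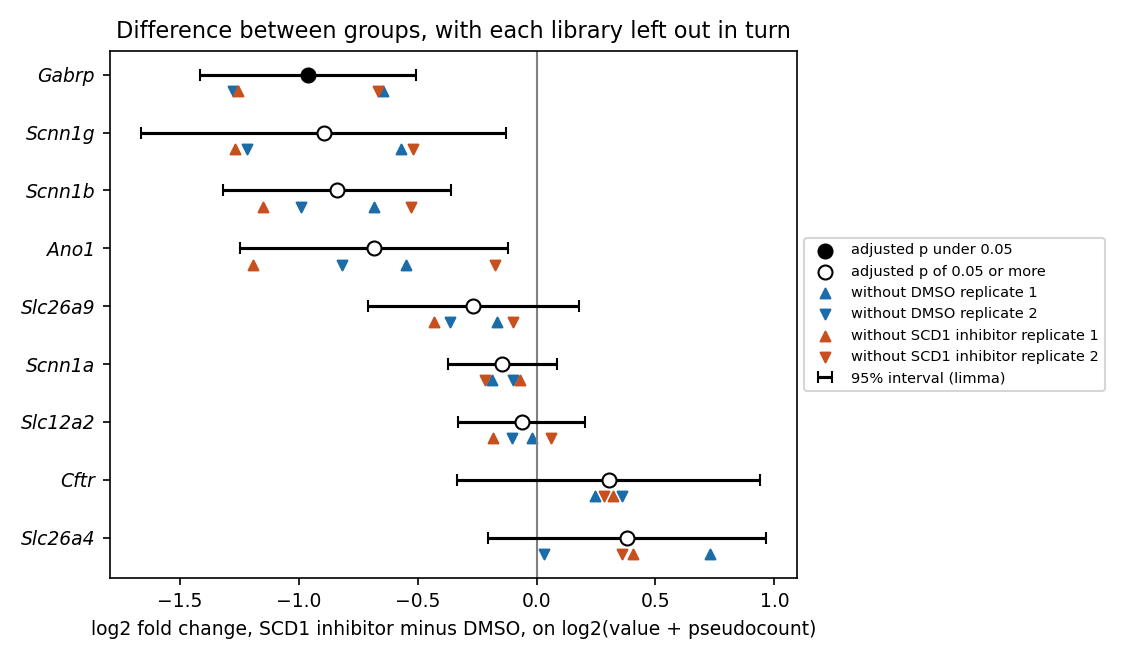
Log2 fold change, inhibitor minus DMSO, of the 9 detected genes with its 95% interval from limma (n = 2 per group); triangles give the value with 1 library left out. *Gabrp*, at -0.96, is the filled point that passed over all genes, and the intervals of *Gabrp*, *Scnn1g*, *Scnn1b* and *Ano1* lie below 0.

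Other subunits of the GABA type A receptor were scarce. The pi subunit made up 96.3% of the summed level per length of the 19 listed subunit genes of the family. Of these 19, 10 had no read in any library and 3 passed the floor: *Gabrp*, *Gabre* and *Gabrq*. The epsilon subunit *Gabre* had 128, 87.2, 45.9 and 114 normalised reads in DMSO replicates 1 and 2 and inhibitor replicates 1 and 2, and its groups overlapped. The theta subunit *Gabrq* had 79.9 and 60.5 reads with DMSO, 58.3 in inhibitor replicate 1 and 0 in inhibitor replicate 2. Neither passed (limma, adjusted p = 0.798 and 0.537).

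The ENaC subunits did not have like values. *Scnn1a* (chromosome 6, 125320659 to 125344943, plus strand) had 25339.8 and 26961 normalised reads under DMSO and 22487.5 and 24868 with the inhibitor. These groups did not overlap, but the nearest libraries lay close together, and the log2 fold change was -0.14 ± 0.11 (95% interval -0.37 to 0.085; limma, adjusted p = 0.598). *Scnn1b*, the beta subunit (chromosome 7, 121865038 to 121918514, plus strand), had 1709 and 1377 reads under DMSO and 1057 and 677 with the inhibitor. Every inhibitor library lay below every DMSO library, and the log2 fold change was -0.84 ± 0.22 (95% interval -1.32 to -0.36), which did not pass over all genes (adjusted p = 0.0835). *Scnn1g*, the gamma subunit (chromosome 7, 121734479 to 121768475, plus strand), had 609 and 379.6 reads under DMSO and 328 and 185 with the inhibitor. Its groups did not overlap either, though DMSO replicate 2 and inhibitor replicate 1 lay close, and its log2 fold change was -0.90 ± 0.36 (95% interval -1.66 to -0.13; adjusted p = 0.278). Without SCD1 inhibitor replicate 2 the log2 fold changes of *Scnn1b* and *Scnn1g* were -0.53 and -0.52. When replicate 1 of the inhibitor was left out instead, they were -1.15 and -1.27. The lowest count behind any of the 9 genes was the 176 reads of *Scnn1g* in inhibitor replicate 2, with a counting error of 7.54%.

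Per length, the beta and gamma subunits were a minor part of the ENaC transcripts. Together they made up 12.2% and 9.06% of the 3 subunits' summed level in the DMSO libraries and 8.58% and 5.03% in the inhibitor libraries. The share was thus lower in both inhibitor libraries, by a margin between DMSO replicate 2 and inhibitor replicate 1 that was smaller than the gap within either group. The means were 10.6% ± 2.23 and 6.81% ± 2.51 for DMSO and inhibitor (SD, n = 2 each). The level of *Scnn1a* was 9.45 and 12.5 times that of *Scnn1b* under DMSO and 13.6 and 23.4 times with the inhibitor. The ratio of *Scnn1b* to *Scnn1g* was 3.19 and 4.12 under DMSO and 3.66 and 4.16 with the inhibitor, and here the groups overlapped.

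**Figure D3:**
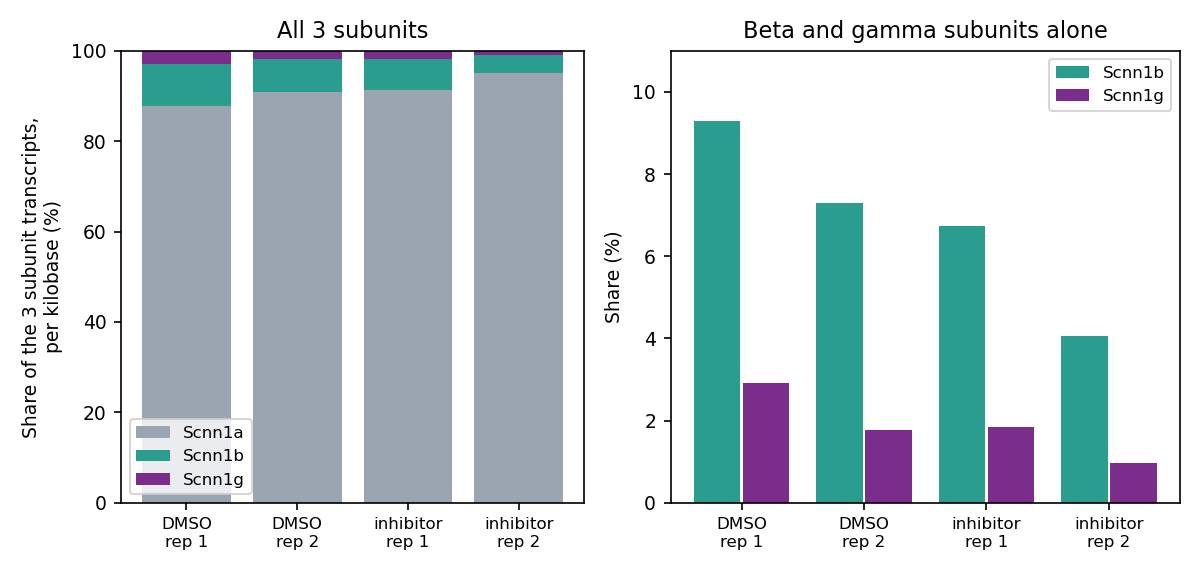
Share of the alpha (*Scnn1a*), beta (*Scnn1b*) and gamma (*Scnn1g*) ENaC transcripts in their summed level per kilobase, in percent, for each of the 4 libraries; the right panel repeats the beta and gamma shares on an axis of their own. Beta and gamma together go from 12.2% in DMSO replicate 1 to 5.03% in inhibitor replicate 2.

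*Scnn1g* and *Scnn1b* are neighbours on chromosome 7, 96562 bases apart with no coding gene between them. The flanking genes did not have values as low. *Usp31*, before *Scnn1g*, had a log2 fold change of 0.26 (limma, adjusted p = 0.610), and *Cog7*, whose gene body overlaps that of *Scnn1b* on the other strand, had -0.17 (adjusted p = 0.702). *Gga2*, the next gene after *Cog7*, had 0.11 (adjusted p = 0.910). Since the sources used here do not say whether counting used strand, reads of *Cog7* and *Scnn1b* in the shared stretch cannot be told apart.

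The profile of *Scnn1g* over the libraries was also among those nearest to *Gabrp*. By the root mean square distance of log2 values, each centred on its mean over the 4 libraries, the nearest of the 13810 genes was the complement gene *C3* (0.046), followed by the mitotic checkpoint kinase gene *Bub1b* (0.052) and *Scnn1g* (0.066). *C3* had 30535 and 21301 normalised reads under DMSO and 15849 and 10291 with the inhibitor, and *Bub1b* had 236, 139, 94.6 and 56.6 in the same order. *Scnn1b* was the 20th nearest (0.13) and *Ano1* the 163rd (0.24). Each distance rests on 4 libraries and is given as a description.

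Of the anion channels and exchangers, none passed the test over all genes. *Ano1* (chromosome 7, 144588549 to 144751974, minus strand), the calcium-activated chloride channel, had 1944.5 and 1606 normalised reads under DMSO and 1562 and 758 with the inhibitor. The first inhibitor library nearly reached the second DMSO library, and the low value rested on inhibitor replicate 2. The log2 fold change was -0.68 ± 0.26 (95% interval -1.25 to -0.12; limma, adjusted p = 0.256), and it was -0.18 without SCD1 inhibitor replicate 2 and -1.19 when replicate 1 was left out instead. Within the anoctamin family the scramblase gene *Ano6* had the highest level per length, 503 reads per kilobase, and its log2 fold change was -0.067 (limma, adjusted p = 0.849).

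*Cftr* (chromosome 6, 18170687 to 18322768, plus strand) had 309.95 and 337 normalised reads under DMSO and 399 and 410.2 with the inhibitor. Both inhibitor libraries were higher, with little spread in either group, but the interval included 0 (log2 fold change 0.30 ± 0.30, 95% interval -0.33 to 0.94; limma, adjusted p = 0.709). That interval rests largely on spread borrowed from other genes. *Slc26a4* (chromosome 12, 31519827 to 31559969, minus strand), pendrin, had 679 and 409 reads under DMSO and 684 and 707 with the inhibitor. DMSO replicate 2 was the low library and the other 3 were close to each other. The log2 fold change was 0.38 ± 0.27 (95% interval -0.20 to 0.96; adjusted p = 0.585), and it was 0.033 without DMSO replicate 2 and 0.73 without DMSO replicate 1. *Slc26a9* (chromosome 1, 131744022 to 131771504, plus strand), a chloride channel of the same family, had 1107 and 961 reads under DMSO and 960.3 and 758 with the inhibitor. DMSO replicate 2 and inhibitor replicate 1 were nearly equal, and its log2 fold change was -0.27 ± 0.21 (95% interval -0.71 to 0.18; adjusted p = 0.620).

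*Slc12a2*, the basolateral chloride loader, had 5603 and 5276 normalised reads under DMSO and 5668 and 4786 with the inhibitor. It was the 1 detected gene whose groups overlapped, and its interval was narrow (log2 fold change -0.062 ± 0.12, 95% interval -0.33 to 0.20; limma, adjusted p = 0.877). *Atp12a* (chromosome 14, 56365068 to 56388550, plus strand), the nongastric proton pump that acidifies the airway surface of some species, had no read in any library. A count of 0 allows up to 3 reads per library, which is 2.87 to 3.15 normalised reads, and covers counting error only. The gastric proton pump genes *Atp4a* and *Atp4b* had no read either.

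Markers of several epithelial cell types also had other levels with the inhibitor. The summed values of 9 goblet cell markers were 106532 and 80974 normalised reads under DMSO and 19181 and 37199.5 with the inhibitor, all 9 had a negative log2 fold change and 6 fell (median -1.61). Those of 12 club cell markers were 771669 and 674557 under DMSO and 676097 and 469316 with the inhibitor, with all 12 negative and 5 that fell (median -0.50). Those of 12 alveolar type 2 markers were 435288 and 490269 against 340819 and 282643, with 5 that fell (median -0.53). Basal cell markers had 5244 and 3898 against 923 and 3084, with none of 5 tested passing (median -1.30). Ciliated cell markers had 553623 and 555542 against 563092 and 580865, with 1 of 12 that rose (median 0.24). The most abundant club, alveolar type 2, basal and ciliated markers were *Scgb1a1* (log2 fold change -0.23; limma, adjusted p = 0.729), *Sftpc* (-0.65, adjusted p = 0.0345), *Krt15* (-1.50, adjusted p = 0.0921) and *Sec14l3* (-0.085, adjusted p = 0.819). *Sftpc* did not pass without DMSO replicate 2 (-0.47, adjusted p = 0.0751), without either inhibitor library (adjusted p = 0.217 and 0.551) or with edgeR (adjusted p = 0.110). *Krt15* had -0.55 without SCD1 inhibitor replicate 1 (adjusted p = 0.577) and passed when replicate 2 was left out instead (-2.45, adjusted p = 0.00224). The part of these markers in the values of the transporter genes was not tested, and in sorted cells in bulk, fewer cells of a type and less RNA per cell cannot be told apart.

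Within the inhibitor pair, the marker lists and the transporter genes did not all go the same way. *Gabrp*, *Scnn1g*, *Scnn1b* and *Ano1* were higher in replicate 1 than in replicate 2, by 0.59, 0.75, 0.62 and 1.02 on the log2 scale. The median difference was 0.12 for club cell and 0.25 for alveolar type 2 markers, and it was -0.52 for goblet cell and -1.49 for basal cell markers. The inhibitor library with the lowest goblet and basal cell markers was therefore the one with the higher values of the 4 transporter genes. The club and alveolar type 2 medians went the same way as these genes. Within the DMSO pair, by contrast, the goblet and basal cell markers went the same way as the 4 genes. There the 4 genes, in the same order, were higher in replicate 1 than in replicate 2 by 0.63, 0.65, 0.31 and 0.27. The median differences of goblet and basal cell markers in that pair were 0.21 and 0.36. Those of club and alveolar type 2 markers there were 0.072 and -0.12. Ciliated cell markers had -0.17 in the DMSO pair and -0.018 in the inhibitor pair. Ionocytes, rare cells rich in CFTR, were barely represented: the ionocyte factor *Foxi1* had 20.5, 0, 0 and 12.6 normalised reads in DMSO replicates 1 and 2 and inhibitor replicates 1 and 2, and 2 of 10 markers had no read anywhere. Of 5 tested ionocyte markers, 4 were positive and 1 was negative, and none passed (median log2 fold change 0.30). The negative one was the most abundant marker of that list, the proton pump subunit *Atp6v1c2*, at -0.17 (limma, adjusted p = 0.672).

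**Figure D4:**
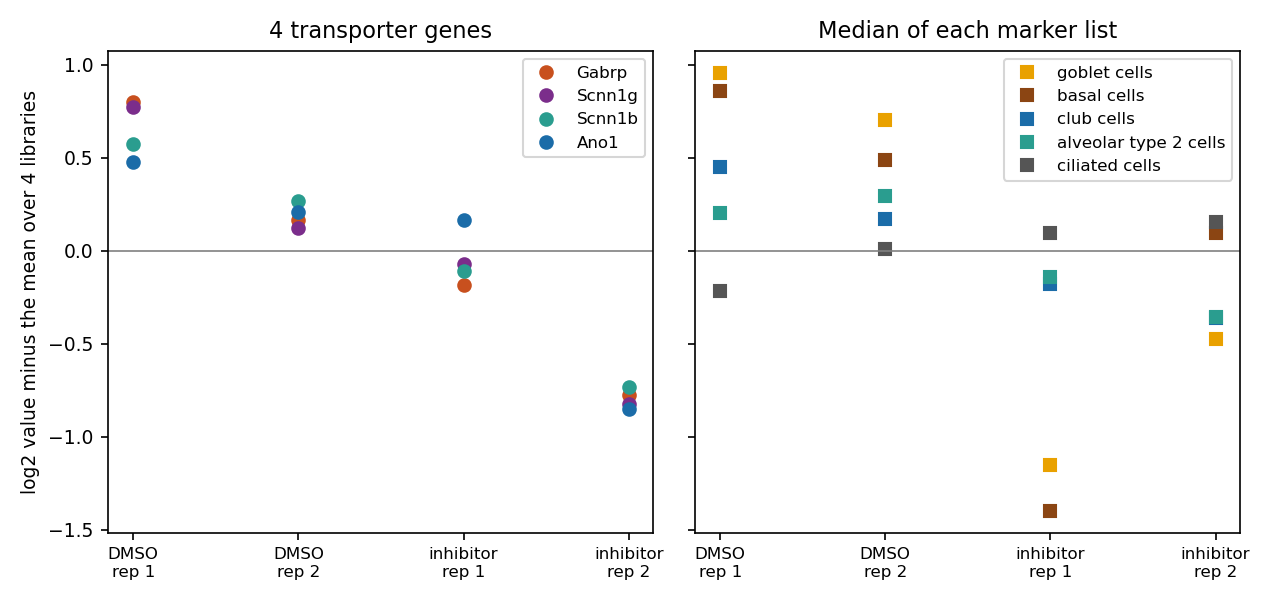
Log2 value of *Gabrp*, *Scnn1g*, *Scnn1b* and *Ano1* (left) and median log2 value of the tested markers of 5 cell types (right) in each library, each gene centred on its mean over the 4 libraries. The 4 transporter genes are lowest in inhibitor replicate 2, as are the club and alveolar type 2 medians, at -0.361 and -0.359. The goblet and basal cell medians are lowest in inhibitor replicate 1, at -1.15 and -1.40. The 4 genes and the goblet, basal and club cell medians are highest in DMSO replicate 1, and the alveolar type 2 median in DMSO replicate 2.

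Regulators of the sodium channel were mostly close to 0. Of 14 tested, 10 were negative and 1 fell (median log2 fold change -0.16). That gene was *Bpifa1*, which encodes SPLUNC1, a secreted protein that binds ENaC and lowers its activity. It had 39314 and 28544 normalised reads under DMSO and 2633 and 14216 with the inhibitor, and the inhibitor replicates were far from each other (log2 fold change -2.45 ± 0.49; limma, adjusted p = 0.0271). *Bpifa1* is also on the club cell marker list, and it did not pass without SCD1 inhibitor replicate 1 (-1.24, adjusted p = 0.0596), while its value was -3.66 when replicate 2 was left out instead. Nor did *Bpifa1* pass with edgeR (-2.02, adjusted p = 0.249), with DESeq2 (-2.01, adjusted p = 0.302) or without the floor (adjusted p = 0.109). The channel-activating protease matriptase, *St14*, had mean values of 6720.1 ± 42.2 and 5571 ± 164 reads under DMSO and inhibitor (SD, n = 2 each; log2 fold change -0.27, adjusted p = 0.294). The ubiquitin ligase *Nedd4l*, which removes ENaC from the membrane, had -0.026 (adjusted p = 0.950).

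Of 17 tested regulators and partners of chloride secretion, 11 were negative and 1 fell (median -0.13). *Clca1*, a secreted protein of goblet cells that raises the current of TMEM16A, had 48387 and 35269 normalised reads under DMSO and 8106 and 15504 with the inhibitor (log2 fold change -1.88 ± 0.23; limma, adjusted p = 0.00163). Both inhibitor libraries lay far below both DMSO libraries. *Clca1* passed without each library in turn and did not pass with edgeR (adjusted p = 0.0714). *Clca1* is also the most abundant goblet cell marker used here. The scaffold gene *Slc9a3r2* had 3360.2 ± 165 and 2450.05 ± 85.2 reads (SD, n = 2 each; log2 fold change -0.45, adjusted p = 0.120), and it passed without DMSO replicate 1 (-0.50, adjusted p = 0.0429).

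No gene passed on the list chosen for pH and bicarbonate transport, which does not hold every such gene (12 tested, 6 positive and 6 negative, median -0.00032). The smallest p value there belonged to the anion exchanger *Slc4a2* (log2 fold change -0.29; limma, adjusted p = 0.297). The sodium pump and potassium channel list also had none (14 tested, 11 negative, median -0.18), with *Kcnq1*, a potassium channel that sustains the driving force for chloride exit, at -0.67 (adjusted p = 0.325). Of 45 listed paralogs of the 10 genes, 18 were tested and none passed (11 negative, median -0.30). *Ano10* had -0.62 (adjusted p = 0.169) and *Slc26a10* had -0.53 (adjusted p = 0.182).

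The genes known to respond to IL-13 in epithelium had a median of -0.66 over 12 tested, with 9 negative and 3 that fell. They were the mucus protein gene *Fcgbp* (log2 fold change -1.90; limma, adjusted p = 5.75e-05), the trefoil peptide gene *Tff2* (-1.86, adjusted p = 0.0102) and *Agr2*, needed for mucin folding (-1.49, adjusted p = 0.0476), all of which are also goblet cell markers on the list above. With edgeR, *Fcgbp* passed (adjusted p = 0.0148), and *Tff2* and *Agr2* did not (adjusted p = 0.0760 and 0.138). Without its filter, edgeR passed all of these genes. *Agr2* also did not pass with equal totals, TMM scaling or quantile normalization (limma, adjusted p = 0.0568, 0.0556 and 0.0544), where *Tff2* passed. *Tff2* and *Agr2* did not pass when either inhibitor library was left out, and *Agr2* also did not without DMSO replicate 2 (adjusted p = 0.184).

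**Figure D5:**
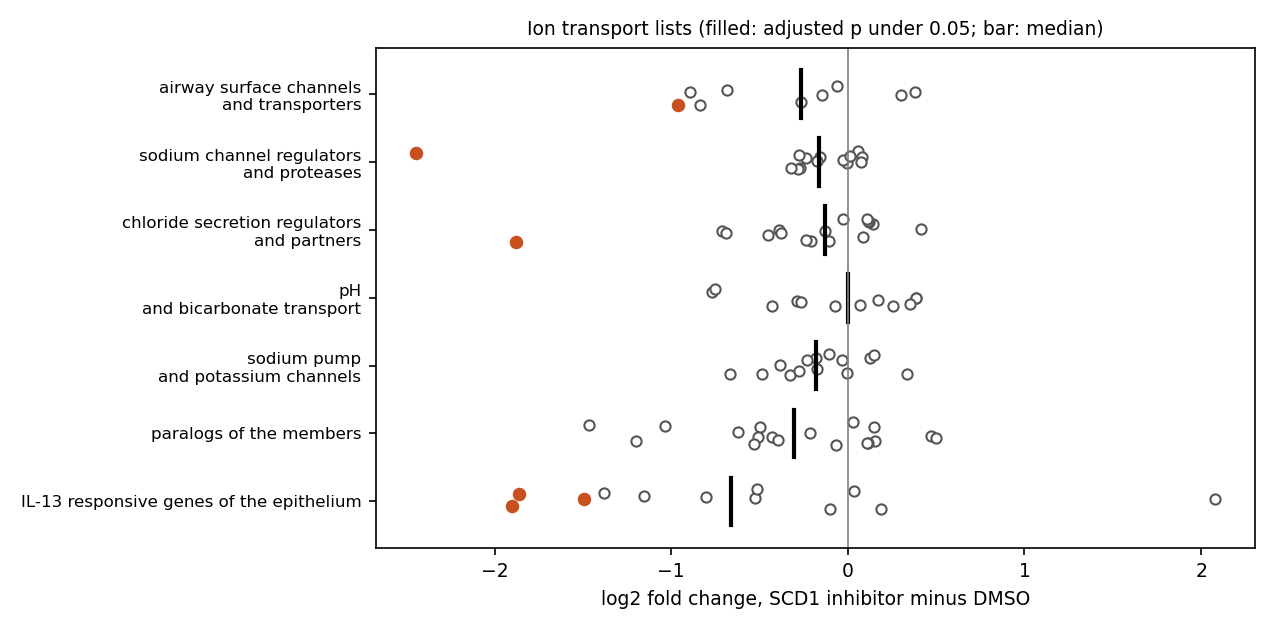
Log2 fold change, inhibitor minus DMSO, of each tested gene of the channel and transporter set and of 6 related lists; filled points passed over all genes and black bars are list medians. Single genes passed in the sodium channel (*Bpifa1*) and chloride secretion (*Clca1*) lists, and list medians run from -0.66 to -0.00032.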

How the data were processed

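RNA sequencing was analysed for 4 libraries, 2 per group. Per the labels' protocols, epithelial cells were sorted by flow cytometry, total RNA was isolated with TRIzol, and a directional kit was used for the libraries. The deposited signal is the number of reads for each gene, scaled by a size factor specific to the library. This was read from the values, all of which were whole multiples of 1 step per library (100% within 0.01). For DMSO replicate 2 that step (0.991) is near 1, so its steps alone cannot be told from rounding. Size factors recomputed from the recovered reads equalled those read from the steps in all 4 libraries. HOMER, DESeq2 and mm10 appear in the submitters' processing notes, without versions or roles. The aligner and the counting strand: not given in the sources used here.

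Values were tested as log2(value + 25.8) with limma 3.58.1 (R 4.3.3, intensity trend, group as the only term) over the 13810 genes with a mean of at least 25.8, and p values were adjusted by Benjamini-Hochberg. The variance of each gene was drawn towards that of genes of like level, with 11.2 prior and 2 residual degrees of freedom. edgeR 4.0.16 and DESeq2 1.42.0 were run on recovered reads. Exon lengths and coordinates came from GENCODE M21 (GRCm38, which is mm10). The fit was tested on simulated data. The genes and lists were chosen with earlier results of these data known. Named genes were all 10 members, up to 4 passing genes and the 2 of smallest p from each related list, the most abundant marker of lists set beside a result, and the 3 genes nearest in profile to a member that passed. *Nedd4l*, *Foxi1*, *Gabre*, *Gabrq*, *Atp4a*, *Atp4b*, *Ano6* and the genes flanking *Scnn1b* were named outside that rule, and some genes that it names are not reported here. Tables and figures were made in Python 3.11.15 (numpy 2.4.6, pandas 2.3.3, matplotlib 3.10.9).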

Additional observations from a re-analysis of the deposited data

How the results depend on the processing

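Over the 142 refits of the 9 tested genes, 129 kept the direction and the side of the threshold. DESeq2 gave no adjusted p value for *Cftr* and *Scnn1g* and is not counted for them. Most of the 129 were refits of genes that did not pass in the main fit and stayed so. The 6 refits in which a call was lost were all of *Gabrp*. *Gabrp* had log2 fold changes of -1.28 to -0.64 throughout, and *Slc12a2* turned sign without SCD1 inhibitor replicate 2, with values of -0.18 to 0.060 when 1 library was left out. The number of the 9 that passed was 1, and it was 0 with a pseudocount of 5.17, without a floor, without the intensity trend and with edgeR, 2 with DESeq2, 3 with edgeR unfiltered, and 0 to 2 with 1 library left out. Of all genes, 247 passed, against 64 without a floor, 0 without the trend (1423 at an unadjusted p under 0.05), 10 with edgeR (1862 unadjusted), 602 with edgeR unfiltered, 477 with DESeq2 and 5 to 795 with 1 library left out. In fits that leave out a library, the lone sample is assumed to vary like the other group. With the replicate block, 674 genes and 3 of the 9 (*Scnn1b*, *Ano1* and *Gabrp*) passed. The labels do not say that replicate numbers pair samples, and same-numbered deviations correlated at 0.073 across genes. The scalings tried (equal totals, TMM and quantile) left *Gabrp* the 1 gene passing. The club cell marker *Scgb1a1* had -0.23, and -0.75 to 0.28 with 1 library left out, its sign turning without SCD1 inhibitor replicate 2. With 2 samples per group, a gene that did not pass is not thereby shown to be equal between groups.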

Other observations

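Outside the lists above, 5 channels and transporters of the families counted here passed the test over all genes, in which 1.79% of all genes passed. They were named after their values were seen. Of 242 solute carrier genes tested, 141 were negative, 1 rose and 2 fell (median log2 fold change -0.071). *Slc16a7*, a monocarboxylate transporter, rose 1.56-fold (limma, adjusted p = 0.0415), with 4741 and 3555 normalised reads with DMSO and 6815 and 6055 with the inhibitor. *Slc4a5*, a sodium bicarbonate cotransporter, fell 2.05-fold (adjusted p = 0.0286), with 1998 and 1652 reads with DMSO and 1075 and 705 with the inhibitor, and *Slc35e1* fell 1.74-fold (adjusted p = 0.0417). The groups of these 3 genes did not overlap.

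The water channel *Aqp5* was the 1 of 6 tested aquaporins that fell (1.81-fold; limma, adjusted p = 0.0203), at 2387 and 2030 normalised reads with DMSO and 1171 and 1243 with the inhibitor. *Aqp5* is also a marker of alveolar type 1 cells. On that marker list it was the 1 of 9 tested genes that fell (median log2 fold change -0.11). *Trpm7*, a divalent cation channel joined to a kinase, rose 1.69-fold (adjusted p = 0.0290), the 1 of 17 tested transient receptor potential genes to pass. None passed among 40 potassium channels, 21 subunits of the V-type proton pump and 12 chloride channels of the Clcn and Clic families. The calls of these 5 genes ended without SCD1 inhibitor replicate 1 (adjusted p from 0.128 to 0.540) and without SCD1 inhibitor replicate 2 (adjusted p from 0.416 to 0.700), and none of the 5 passed with edgeR (adjusted p from 0.0963 to 0.164). *Slc35e1* also did not pass without DMSO replicate 1 (0.0515), nor *Slc16a7* without DMSO replicate 2 (0.0698).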
